A study of Homo sapiens with 15 samples.

Results

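GDF15, FGF21, INHBE, INHBA, STC1, STC2 and ANGPTL4 encode 7 secreted proteins, grouped here as signals of mitochondrial and nutrient stress. They were found on the arrays by the RefSeq accession that each probe carries, and each of the 7 was represented by 1 probe among 58201 probes. Of these, 6 passed the filter on dim probes and were tested among 26826 genes or transcripts. FGF21 did not pass it and is described by its levels alone.

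The arrays measured RNA of A2058 cells, an established human melanoma line, after 8 h with 1 of 5 treatments. These were DMSO, NP (3 μM, in DMSO), water (W), metformin (MET, 5 mM, in water) and phenformin (PHEN, 50 μM, in water), with 3 replicates each and 15 single-color arrays in all. NP is the label of the samples, and the series names the compound neopetasin. The study describes its petasin experiment at the same dose and time in this line, and which of these related sesquiterpene esters was applied cannot be read from the arrays. Metformin and phenformin are biguanides, which inhibit complex I of the mitochondrial respiratory chain. All 5 groups came from the same line, and the labels name no genetic change. NP was compared with DMSO and each biguanide with water, its own vehicle.

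Cells that cannot run respiration or that lack amino acids activate the integrated stress response, in which stress kinases slow translation while the transcription factor ATF4 accumulates and turns on genes for amino acid supply and redox balance. Part of this program is secreted. GDF15 acts on the brainstem to suppress appetite, FGF21 acts on fat tissue and brain, activins signal through SMAD proteins, stanniocalcins act near the cell on growth factor availability and calcium, and ANGPTL4 holds back the release of fatty acids from lipoproteins.

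The extraction software marked between 25804 and 45043 probes per array as well above background. W replicate 1 (45043) and MET replicate 1 (44450) had the most, and the other 13 arrays lay between 25804 and 37924. The 15 arrays came from 4 slides. DMSO and NP shared slides 1 and 2, and W, MET and PHEN shared slides 3 and 4, so that vehicle and set of slides cannot be told apart wherever a DMSO or NP array is set against an array of the other set. Of 12 melanocytic and melanoma markers, 11 were above background on all 15 arrays, among them MITF, SOX10 and PMEL, and TYR was above it on 13. Of 12 markers of other cell types, EPCAM and KRT5 were above background on no array, ALB on 1, and 7 (among them PTPRC, CD14 and KRT18) on all 15. Limma called no gene of these marker lists in any comparison, and 0 passed an unadjusted p of 0.05 with the fold of 1.5. In a bulk sample a lower level cannot be told apart from fewer cells that express the gene. All levels below are log2 intensities relative to the 75th percentile of the array and are compared within a probe only. A gene was called when limma gave an adjusted p of at most 0.05 and a change of at least 1.5-fold. The 3 arrays per group limit the precision of each value.

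GDF15, INHBE and STC2 stood higher in the treated arrays than in their own vehicle in every pair of all 3 comparisons. The share of all features that did so is not given here, so this describes the members only. Among the members, only GDF15 after NP was called with 1 replicate block over all arrays. With the block within each set of slides, or with a slide term, GDF15, INHBE and STC2 were all called after NP (0.216% of all features were called higher with the slide term), and with no block INHBE was called and GDF15 was not. In either direction, 52 of 26826 features were called with the block within each set and 3 with no block. INHBA, STC1, ANGPTL4 and FGF21 overlapped their vehicle in all 3 comparisons. Against DMSO, limma called 1 of 6 members after NP, where 0.0373% of all features were called. Against water it called 0 of 6 after MET, where 0% of features were called (659 of 26826 had an unadjusted p of at most 0.05), and 0 of 6 after PHEN, where 0.0261% were called. At an unadjusted p of at most 0.05 without regard to fold, 3 members passed in each of the 3 comparisons, as did 1257, 659 and 631 of the 26826 features after NP, MET and PHEN. With the fold of 1.5 as well, 3 passed after NP, 2 after MET and 3 after PHEN, all of them higher, where 1.56%, 0.309% and 0.205% of all features passed and were higher. INHBE entered these tests through its NP, MET and PHEN arrays, since the filter asks for 3 of 3 spots above background in some group and neither vehicle met that. The methods' t-test, a paired test, called none of the 6 members in any of these comparisons after adjustment. It then called 0 of 26826 features in each, so that it does not set the members apart. Without adjustment it called 3, 1 and 2 members after NP, MET and PHEN, where 214, 124 and 168 features were called. The treated arrays lay wholly above the vehicle arrays for 3 members in each comparison, as they did for 3.04% of all features after NP, 3.49% after MET and 3.82% after PHEN. MET and PHEN share the W arrays, so their comparisons are not separate evidence.

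**Figure D1:**
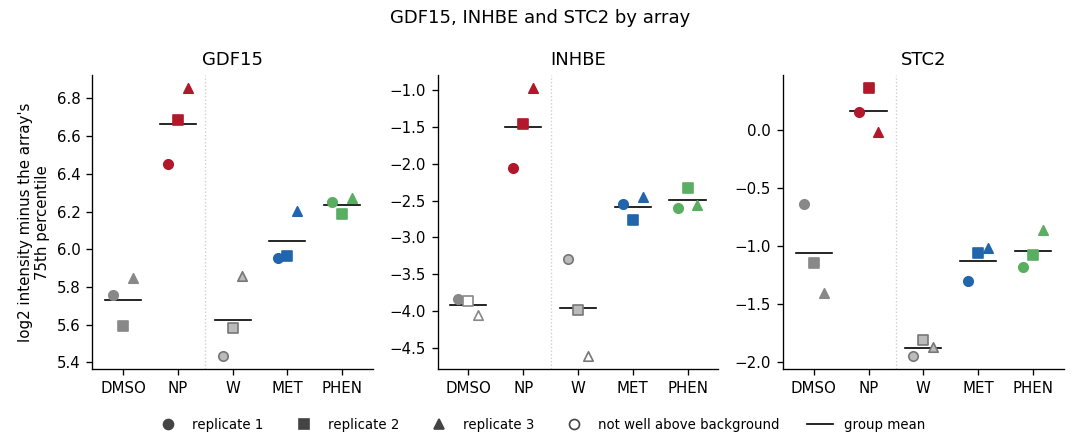
Level of GDF15, INHBE and STC2 on each of the 15 arrays (log2 intensity minus the array's 75th percentile), by treatment. Symbols mark the replicate number, open symbols mark spots not well above background, bars mark group means, and the dotted line parts the arrays of the DMSO set from those of the water set. For each gene the 3 NP arrays lie above all other arrays, and the MET and PHEN arrays lie above the W arrays.

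GDF15, a distant member of the TGF-β superfamily that circulates as a stress hormone, rose after NP. Its level was 5.76, 5.60 and 5.85 after DMSO (replicates 1 to 3) and 6.45, 6.69 and 6.85 after NP. Every NP array lay above every DMSO array. This was a 1.91-fold rise, a log2 fold change of 0.93 ± 0.11 (SE; 95% confidence interval 0.70 to 1.17), with an adjusted p of 0.0296 by limma. Leaving out replicate 1, 2 or 3 in every group gave 1.05, 0.85 and 0.89, with adjusted p of 0.353, 1 and 0.297. In none of these smaller fits was any feature called. With all replicates, the adjusted p by limma was 0.068 with no replicate block and 0.211 without the filter on dim probes. It was 0.672 in a fit of the DMSO and NP arrays alone. Each of these ended the call. Without the filter and in the fit of DMSO and NP alone, 0 features were called, and with no replicate block 3 were.

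In the water set, GDF15 read 5.43, 5.58 and 5.86 after W, 5.96, 5.97 and 6.20 after MET, and 6.25, 6.19 and 6.27 after PHEN. Both biguanides lay above water on every array, and MET and PHEN overlapped each other. The change on the log2 scale was 0.42 (0.18 to 0.65) after MET, with an adjusted p of 1, and 0.61 (0.38 to 0.85) after PHEN, with an adjusted p of 0.291. Neither was called. Without W replicate 1 and MET replicate 1 these values were 0.36 and 0.54. Ordered by group mean, GDF15 stood highest after NP (6.66 ± 0.20, SD, n = 3), then after PHEN (6.24 ± 0.04), MET (6.04 ± 0.14), DMSO (5.73 ± 0.13) and W (5.63 ± 0.22). NP did not overlap PHEN, nor MET DMSO, while the vehicles overlapped each other.

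INHBE encodes the βE subunit of activin E, a protein that the liver secretes. It was dim in the vehicle arrays, and the size of its change depended on how the background was treated. Its level was -3.84, -3.86 and -4.05 after DMSO, where 1 of 3 spots was well above background, and -2.06, -1.46 and -0.98 after NP, where all 3 were. All NP arrays lay far above all DMSO arrays, and the differences within pairs were 1.78, 2.40 and 3.07. Limma estimated a log2 fold change of 2.42 ± 0.33 (SE), or 5.34-fold (95% interval 1.68 to 3.15), with an adjusted p of 0.0543, above the threshold. With 2 of 3 DMSO spots not well above background this size is uncertain, and with normexp background correction it was 0.81, with an adjusted p of 0.136. With the slide as a term beside the replicate number the adjusted p was 0.0294 and INHBE was called.

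After W, INHBE read -3.29, -3.98 and -4.61, with 2 of 3 spots above background. It read -2.54, -2.77 and -2.46 after MET and -2.60, -2.33 and -2.56 after PHEN, and these 6 spots were all above background. The treated arrays did not overlap water, and MET and PHEN overlapped each other. The differences within pairs were 0.74, 1.21 and 2.15 for MET and 0.69, 1.64 and 2.04 for PHEN, so that the size of the change varied widely with the replicate, with the W arrays spread over -4.61 to -3.29. The log2 fold change was 1.37 (0.63 to 2.10) after MET and 1.46 (0.72 to 2.19) after PHEN, and with adjusted p of 1 and 0.894 neither was called. Without W replicate 1 and MET replicate 1, the values were 1.68 and 1.89, still not called. With normexp they were 0.47 and 0.45. The group means fell in the order NP, PHEN, MET, DMSO, W, as for GDF15, and again NP did not overlap PHEN and MET did not overlap DMSO.

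STC2, a stanniocalcin that inhibits the protease PAPPA and so the release of insulin-like growth factors, was the third gene of this kind. Its level was -0.64, -1.15 and -1.40 after DMSO and 0.16, 0.36 and -0.02 after NP. The NP arrays all lay above the DMSO arrays, by 0.80, 1.51 and 1.39 within pairs. The log2 fold change was 1.23 ± 0.19 (SE), or 2.35-fold (0.81 to 1.66), with an adjusted p of 0.0887 by limma. With the slide term the adjusted p was 0.0179 and STC2 was called, as it was with normexp, at a smaller change of 0.81 (adjusted p 0.0463).

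STC2 read -1.95, -1.81 and -1.87 after W, -1.30, -1.06 and -1.02 after MET, and -1.18, -1.08 and -0.86 after PHEN. Both biguanide groups lay wholly above water and overlapped each other. The differences within pairs were even, at 0.65, 0.75 and 0.85 for MET and 0.77, 0.74 and 1.01 for PHEN. The log2 fold change was 0.75 (0.33 to 1.17) after MET and 0.84 (0.41 to 1.26) after PHEN, with adjusted p of 1 and 0.906. Without W replicate 1 and MET replicate 1 they were 0.80 and 0.76, and with normexp 0.44 and 0.46. The vehicles themselves differed for STC2, with -1.06 ± 0.39 (SD, n = 3) after DMSO and -1.88 ± 0.07 after W. These ranges did not overlap, and MET and PHEN overlapped DMSO. Against DMSO in place of water, the log2 fold change of STC2 was -0.064 after MET and 0.024 after PHEN. STC2 was the one member whose vehicles did not overlap. How many of all features had vehicles that did not overlap was not counted, so this does not set STC2 apart from other genes. Vehicle and set of slides cannot be told apart there.

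**Figure D2:**
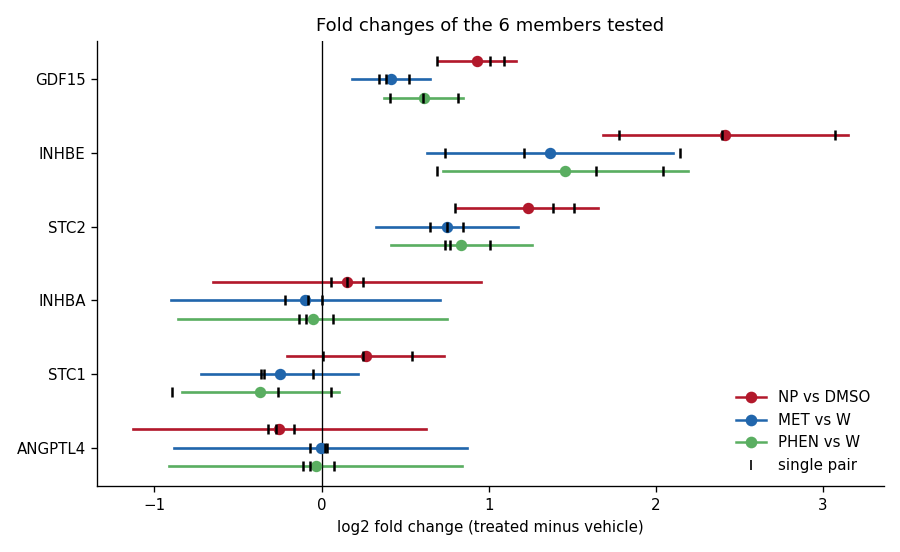
Log2 fold change of the 6 members tested, for NP against DMSO, MET against W and PHEN against W. Points are limma estimates, lines their 95% confidence intervals and black ticks the single replicate pairs. The intervals of GDF15, INHBE and STC2 lie above 0 in all 3 comparisons, and those of INHBA, STC1 and ANGPTL4 include 0.

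INHBA encodes the βA subunit of activin A. It read -0.50, -0.03 and -1.58 after DMSO and -0.44, 0.22 and -1.43 after NP, with replicate 3 lowest in both groups. Its log2 fold change after NP was 0.15 ± 0.36 (SE), with an interval of -0.65 to 0.96. After W it read -0.16, 0.08 and 0.13, after MET -0.15, -0.13 and 0.05, and after PHEN -0.09, -0.05 and 0.03. The log2 fold changes were -0.10 (-0.90 to 0.71) after MET and -0.05 (-0.86 to 0.75) after PHEN. All 5 groups overlapped their neighbors in the order of means. With the slide term its SE was 0.12 and its adjusted p after NP 0.767. INHBA and INHBE both encode subunits of activin dimers, and whether their changes differed was not tested.

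STC1, the other stanniocalcin, read -2.81, -2.81 and -3.57 after DMSO, with the last not well above background, and -2.57, -2.80 and -3.03 after NP. In the water set it read -2.66, -2.74 and -3.16 after W, -3.03, -2.79 and -3.50 after MET, and -2.92, -3.64 and -3.10 after PHEN. All groups overlapped. STC1 had a log2 fold change of 0.26 (-0.21 to 0.73) after NP, -0.25 (-0.72 to 0.22) after MET and -0.37 (-0.84 to 0.10) after PHEN, all with an adjusted p of 1. STC1 lay higher in all 3 NP pairs and lower in all 3 MET pairs. The difference between the NP and the MET change was 0.52 ± 0.30 (SE), with an interval of -0.15 to 1.18 and an adjusted p of 1.

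ANGPTL4, an inhibitor of lipoprotein lipase, read 1.87, 2.20 and 0.55 after DMSO and 1.55, 2.04 and 0.28 after NP. As with INHBA, replicate 3 was lowest in both groups; these arrays were on slide 2. NP lay below DMSO in each pair, by 0.32, 0.16 and 0.27 log2 units, while the groups overlapped widely. Its log2 fold change after NP was -0.25 ± 0.39 (SE), with an interval of -1.13 to 0.62. With the slide term its SE was 0.092 and its adjusted p 0.473. In the water set the readings were 2.16, 2.35 and 2.43 after W, 2.19, 2.28 and 2.47 after MET, and 2.23, 2.29 and 2.32 after PHEN, which overlapped throughout. Against W, the log2 fold changes were -0.0041 (-0.88 to 0.87) after MET and -0.03 (-0.91 to 0.84) after PHEN.

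FGF21, a hormone of the fibroblast growth factor family, was not well above background on 13 of 15 arrays. It read -6.40, -5.71 and -5.39 after DMSO, -6.43, -5.37 and -4.92 after NP, and -5.52, -4.60 and -6.09 after PHEN, and none of these 9 spots was above background. After W it read -4.02, -4.88 and -6.32, and after MET -2.73, -4.64 and -6.45, with the first value of each above background. Those were the W and MET arrays with the most probes above background, and the part of that in the FGF21 readings was not tested. All 5 groups overlapped. Without a filter on dim probes, limma gave a log2 change of 0.26 after NP, 0.46 after MET and -0.33 after PHEN, each with an SE of 0.85 and an adjusted p of 1. A change of FGF21 was not detectable at this signal.

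**Figure D3:**
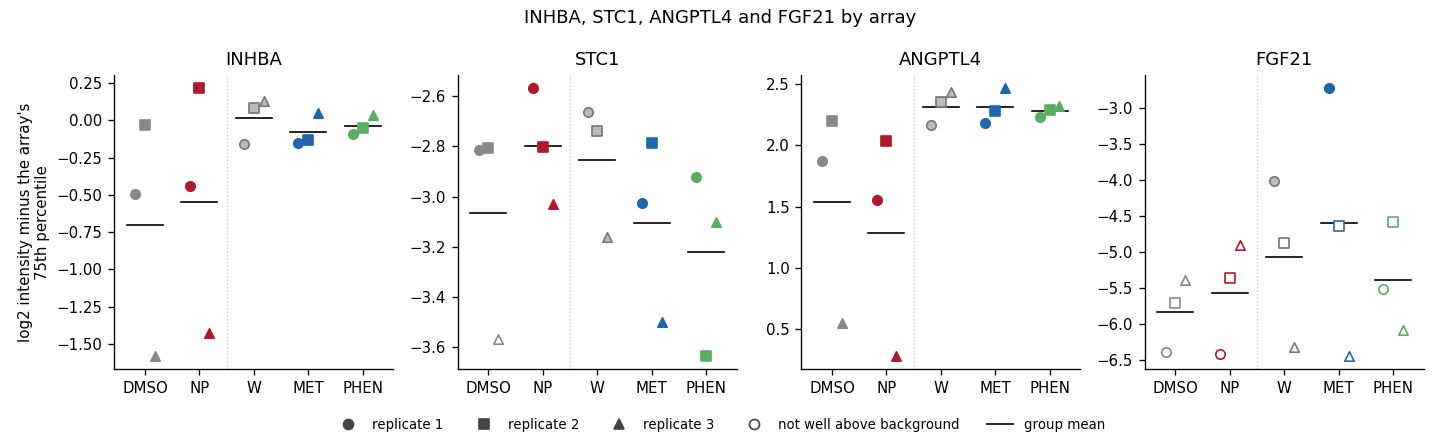
Level of INHBA, STC1, ANGPTL4 and FGF21 on each of the 15 arrays (log2 intensity minus the array's 75th percentile), by treatment, with symbols, bars and dotted line used in the same way as for GDF15, INHBE and STC2. Each treated group overlaps its vehicle, replicate 3 of DMSO and NP is lowest for INHBA and ANGPTL4, and 13 of 15 FGF21 spots are open.

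The promoters of the members were searched for the C/EBP-ATF response element, the site through which ATF4 and its C/EBP partners act, and for the core of the hypoxia response element. The windows were those of RefSeq on GRCh38.p14, 250 bases before to 50 after the start of transcription, and 5 of 7 members had one (not INHBE or STC1). The element TGATGNAA, or TTNCATCA on the other strand, was present in 3.62% of 35116 windows and in 1 of the 5 members, FGF21. The core ACGTG, or CACGT on the other strand, was present in 21.4% of windows and in 1 of the 5, ANGPTL4. Neither was present in the windows of GDF15, INHBA or STC2. Among regulators of the integrated stress response, 3 of 23 windows held TGATGNAA, those of JDP2, CEBPG and ATF3. The stretches around each match are shown 5′ to 3′ on the plus strand, with the match in capitals, so that the member above background on 2 of 15 arrays can be set beside regulators that were above it on all 15.
FGF21 (chr19:48755459-48755488, match 54 bases before the start): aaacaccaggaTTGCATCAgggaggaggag
JDP2 (chr14:75427995-75428024, 16 bases before): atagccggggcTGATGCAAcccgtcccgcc
CEBPG (chr19:33374060-33374089, 42 bases before): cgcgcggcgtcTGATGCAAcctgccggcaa
ATF3 (chr1:212565205-212565234, 191 bases before): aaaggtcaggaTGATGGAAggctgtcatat
ANGPTL4 (chr19:8363910-8363936, 234 bases before): gaaagaagagtCACGTctcccacggtt
The FGF21 match is the JDP2 and CEBPG octamer read on the opposite strand. A match is a description of the letters, and a window without one says nothing about more distant sites.

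Of 11 regulators of the integrated stress response, 10 were tested, and NFE2L2 was above background on no array. Limma called 3 of the 10 after NP, 0 after MET and 2 after PHEN, all higher, where 0.0373%, 0% and 0.0261% of all features were called. At an unadjusted p of at most 0.05 with the fold of 1.5, these were 8, 4 and 5. Of all features, 1.56%, 0.309% and 0.205% passed that rule and were higher. The list was chosen with earlier results of these data known. The median log2 fold change of the 10 was 0.86 after NP, 0.53 after MET and 0.60 after PHEN, where that of all features was -0.01, 0.00 and -0.03. NUPR1, a stress-induced chromatin protein, rose by 1.69 ± 0.20 (SE) after NP (adjusted p 0.0296) and by 1.58 after PHEN (adjusted p 0.0406), and was 1.48 higher after MET with an adjusted p of 0.204. JDP2, a repressor of the AP-1 family, rose by 1.32 after NP (adjusted p 0.0326) and by 1.41 after PHEN (adjusted p 0.0406), and was 1.12 higher after MET (adjusted p 0.214). TRIB3, a pseudokinase that restrains AKT, rose by 1.01 after NP (adjusted p 0.0459), and its values were 0.54 after MET and 0.71 after PHEN.

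Other regulators were not called with the replicate block alone. ATF3 had log2 fold changes of 1.17, 0.84 and 0.99 after NP, MET and PHEN, and DDIT3 (CHOP), the proapoptotic C/EBP relative, had 1.04, 0.69 and 0.63. ATF4 itself, whose protein is controlled mainly at translation, had 0.60, 0.52 and 0.57, with adjusted p of 0.702, 1 and 1. ATF5 was the one regulator with negative values, at -0.25, -0.11 and -0.23, each with an adjusted p of 1. With the slide term, limma called 6 of the 10 after NP, 1 after MET (NUPR1, adjusted p 0.0377) and 2 after PHEN as higher, where 0.216%, 0.00373% and 0.0485% of all features were called higher. ATF3 and DDIT3 (adjusted p 0.0343 each) and XBP1 (0.0466) were among those called after NP.

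No receptor of the members was called. GFRAL, the receptor of GDF15, was above background on 2 arrays and KLB, the co-receptor of FGF21, on at most 3 by any probe, and neither was tested. RET, the partner of GFRAL, was above background on 14 arrays. Of 15 receptors, 13 were tested, and limma called none in any comparison; at an unadjusted p of at most 0.05 with the fold of 1.5 the count was also 0 in each. Their median log2 fold change was -0.05 after NP, -0.03 after MET and -0.04 after PHEN. The activin receptors ACVR1, ACVR1C, ACVR2A and ACVR2B were above background on all 15 arrays, as were FGFR1, FGFR3, FGFR4 and TGFBR1 to TGFBR3, and ACVR1B was above it on 11 and FGFR2 on 12.

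Among other activin and inhibin subunits and inhibitors of the pathway, 8 of 10 were tested and none was called by limma. Leaving aside LEFTY2 and NOG, which were above background on at most 2 arrays, the median log2 fold change was -0.03 after NP, 0.14 after MET and 0.04 after PHEN. FST (follistatin), which binds and neutralizes activins, had 0.59 ± 0.17 (SE) after NP with an adjusted p of 0.704, and was the 1 gene of this list at an unadjusted p of at most 0.05 with the fold of 1.5. The subunits INHA, INHBB and INHBC were above background on all 15 arrays, with log2 fold changes after NP of -0.09, 0.14 and 0.27. The inhibitors FSTL3, BAMBI, SMAD6 and SMAD7 had -0.05, -0.02, -0.18 and -0.03.

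Of 10 targets and mediators of activin and TGF-β signaling, none was called by limma, and their median log2 fold change was -0.04 after NP, -0.10 after MET and -0.07 after PHEN. At an unadjusted p of at most 0.05 with the fold of 1.5, 0 passed after MET and 0 after PHEN. Of 12 genes for processing proteases, lipases and related proteins, such as FURIN, PAPPA and LPL, 9 were tested and none was called. None passed the unadjusted test with the fold. Of 20 relatives of the members, such as TGFB1, GDF11 and ANGPTL2, 8 were tested, 7 were above background on no array, none was called and 0 passed the unadjusted test with the fold.

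ANGPTL4 is a known target of PPAR and hypoxia factors, and GDF15 of p53. Of 16 genes of the PPAR and hypoxia list, none was called by limma, and 1 after NP (VEGFA), 0 after MET and 2 after PHEN (VEGFA and EGLN3, the latter at -0.60) passed the unadjusted test with the fold. VEGFA, the angiogenic growth factor, had log2 fold changes of 1.01 ± 0.14 (SE) after NP (adjusted p 0.0543), 0.50 after MET (adjusted p 1) and 0.88 after PHEN (adjusted p 0.146). With the slide term VEGFA was called after NP (adjusted p 0.00809) and PHEN (0.00854). Of 12 targets of p53, none was called, and 0, 0 and 1 passed the unadjusted test with the fold (TP53INP1 after PHEN, at -0.60). EGLN3 and TP53INP1 were chosen for naming with their values known. The median of the p53 list was -0.03, -0.08 and -0.07.

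Whether NP moved the members more than the biguanides did was tested as a difference between changes, each against its own vehicle. The compounds were given at different doses and on different slides, so these values describe the treatments as applied. For GDF15 the NP change exceeded the MET change by 0.51 (0.18 to 0.85) and the PHEN change by 0.32 (-0.01 to 0.65). For INHBE the differences were 1.05 (0.01 to 2.09) and 0.96 (-0.08 to 2.00), and for STC2 0.48 (-0.12 to 1.08) and 0.40 (-0.20 to 0.99). Limma called 0 of 6 members in either difference, where 0% of all features were called, each with an adjusted p of 1. At an unadjusted p of at most 0.05, 2 members passed against MET (GDF15, INHBE) and 0 against PHEN, as did 747 and 651 of the 26826 features. The intervals reached 0.85 for GDF15, 2.09 for INHBE and 1.08 for STC2, so these arrays do not show that the compounds acted alike.

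GDF15, STC2, INHBA and ANGPTL4, the members above background on all 15 arrays, were set against 13868 genes with the same property, by the correlation across 15 arrays after each array had been centered on the arrays of its own vehicle and replicate number. Treatment and vehicle are shared by all genes on these arrays, so these values describe which patterns were alike. The DMSO and NP arrays of a replicate were centered as a pair, so their values mirror each other and the 15 are not independent. GDF15 was most like GRB10 (r = 0.997), XBP1 (0.99) and CTH (0.99). STC2 was most like TSC22D3 (0.99), CTH (0.99) and SESN2 (0.98). CTH, an enzyme of cysteine synthesis, was named for both. INHBA was most like F2RL3 (0.97), THAP6 (0.94) and CCDC181 (0.90), and SPR (0.97) and RELT (0.97) were among the 3 genes most like ANGPTL4. Among the members, GDF15 and STC2 had r = 0.97, GDF15 and INHBA 0.48, and ANGPTL4 had -0.71 with GDF15 and -0.73 with STC2.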

How the data were processed

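RNA of A2058 cells was hybridized to 15 single-color Agilent human expression arrays, 3 per group, grouped by the labels. For each array the authors deposited spot intensities (processed signal, background-subtracted and detrended) and flags, from Feature Extraction 10.7.3.1 per the file headers and 9.1 per the submitters' processing notes. They were not normalized between arrays. The authors also deposited a table of log2 values set to a common 75th percentile with a floor of 4, which held 31.3% to 50.8% of the values of an array. That table served as an alternative.

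Control spots were left out, the 1853 spots called outliers were set to missing, and no spot was saturated. Repeated spots were averaged per probe, and each array's 75th percentile was subtracted on the log2 scale. A probe was kept if some group had it well above background on each of its 3 arrays (32914 of 58201). The brightest such probe stood for its gene, and features with values on 8 or more arrays were tested (26826). Symbols came from RefSeq accessions, which named 31104 of 33080 probes that carry one.

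Using limma 3.58.1 (R 4.3.3, statmod 1.5.0), the 15 arrays were fitted with terms for group and replicate number (8 residual degrees of freedom), and two-sided p-values were adjusted over every feature tested by the Benjamini-Hochberg method. The block follows the methods' paired test. Within a set of slides, arrays of the same replicate number deviated together from their group means (r 0.217 to 0.855 over 12 pairs), and across sets they did not (-0.186 to 0.226 over 18 pairs). Within a set, arrays of different number had r -0.783 to 0.289 over 24 pairs. Replicates 1 and 2 shared a slide in each set, and replicate 3 was on the other slide. On slide 1, DMSO and NP arrays of different number had 0.242 and 0.289, and those of the same number 0.306 and 0.331. On slide 3, W and MET arrays of different number had -0.237 and -0.326. The part of the slide in this was not tested. Independent experiments are stated by the study, but not which cultures shared a day. The fit was tested on simulated data with replicate effects common to all groups and no slide effects. That test therefore does not cover the slides of these arrays. Tables and figures were made with Python 3.11.15, pandas 2.3.3, numpy 2.4.6 and matplotlib 3.10.9.

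Named were all 7 members, list genes called in any of the 3 comparisons or passing unadjusted p and fold in at least 2 of them, receptors, subunits and inhibitors with their detection, and the 3 genes most like each member detected on all arrays. Some single genes are not reported here. Other list genes were named for their role after their values had been seen. The members and lists were chosen with earlier results of these data known. The alternatives were no replicate block, the block within each set of slides, slide as a term or random block, normexp (offset 50, on the median spot signal), quantile normalization, the authors' table, no filter on dim probes or a stricter one, the mean of a gene's probes, only the groups compared, the methods' t-test, DMSO in place of water, and leaving out each replicate.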

Additional observations from a re-analysis of the deposited data

Results flagged for a closer look

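For STC1, the NP change exceeded the MET change by 0.52 on the log2 scale. It was picked out because STC1 was higher than DMSO in all 3 NP pairs and lower than water in all 3 MET pairs. The difference was tested with limma (unadjusted p 0.114, adjusted p 1) and did not pass. The comparison sets one vehicle and set of slides against the other, and the part of these was not tested.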

How the results depend on the processing

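The number of members called after NP against DMSO was 1 of 6 (GDF15). It was 3 (GDF15, INHBE, STC2) with the replicate block within each set of slides, with a slide term, with slide as a random block and by the methods' t-test without adjustment. It was 2 with normexp, quantile normalization, the authors' table or only probes above background on all arrays, and 0 without a filter on dim probes, in a fit of only the groups compared, by the methods' t-test after adjustment, and whichever 1 replicate was left out, also with the slide term and without replicate 1 or 2. With no replicate block it was 1, INHBE in place of GDF15 (adjusted p 0.0463 and 0.068). After MET and PHEN 0 members were called. By the methods' t-test without adjustment it was 1 (STC2) and 2 (GDF15, STC2), where 124 and 168 of 26826 features were called. With DMSO in place of water it was 1 each (INHBE), where 4568 and 2761 features were called. That setting compares arrays of different slides. All other settings kept 0 members, as did every setting for the 2 differences between changes. The features called after NP, 10 in all, were 3 with no replicate block and 63 with the slide term. By the methods' t-test without adjustment they were 214, and each setting that called 0 members after NP called 0 features. After NP, GDF15 ranged from 0.85 to 1.05 over 17 settings, INHBE from 0.81 to 2.73 over 16 and STC2 from 0.81 to 1.45 over 17. Changes of block, slide, filter, test or groups fitted left the estimates at 0.93, 2.42 and 1.23, so they are no check of direction. The values moved with normexp, quantile normalization, the authors' table or a replicate left out, and these kept the direction. With DMSO in place of water the values turned for INHBA (0.62 after MET, 0.67 after PHEN), ANGPTL4 (0.77 and 0.74) and STC2 after MET (-0.064). ANGPTL4 also turned after MET with normexp (0.033) and quantile normalization (0.0062). With 1 replicate left out it ranged from -0.023 to 0.028 after MET, turning without replicate 2 (0.028 with the slide term too), and from -0.20 (without W and MET replicate 1) to 0.0020 (without replicate 3) after PHEN. The cause was not tested. Settings with the slide term that leave out replicates, and those without W replicate 1 and MET replicate 1, were chosen after the data had been seen. Each other probe of a member was not run, since each has 1 probe. Signal over background limits FGF21, INHBE and STC1.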
